A study of Mus musculus with 4 samples.

Results

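The KRAB zinc finger gene clusters described here are 3 stretches of the mouse genome chosen by position in the build mm9: 175000000 to 177900000 of chromosome 2, 145000000 to 147600000 of chromosome 4 and 62200000 to 68200000 of chromosome 13. They were read by reduced representation bisulfite sequencing, which measures CpG methylation next to the cut sites of the enzyme MspI, in 4 libraries of mouse embryonic stem (ES) cells. Of the 1899909 cytosines with 10 or more calls in each library, 6184 lay in the clusters. The clusters held 402 of the 121563 windows of 1 kb with at least 3 such cytosines. Cluster cytosines in windows with fewer than 3 count in the cytosine means alone. Of the 402 windows, 16 lay in the chromosome 2 cluster, 135 in the chromosome 4 cluster and 251 in the chromosome 13 cluster. The level of a cytosine is its methylated calls over all its calls, and the level of a window is the same over all its cytosines. The groups were Naa10 KO ES cells with 2 libraries and wild-type (WT) ES cells with 2 libraries. Naa10 encodes the catalytic subunit of an N-terminal acetyltransferase. The cells of both groups were grown with LIF, the Mek inhibitor PD325901 and the Gsk3 inhibitor Chir99021 on irradiated feeders, and then passaged free of feeders before DNA was taken. How the knockout was made, and whether replicate libraries stem from different clones or cultures, is not stated in the labels, so the p-values given here cover the spread among these libraries alone, and that spread may be technical. Expression was not measured, so markers of ES cells could not be examined. The question is how much of the WT methylation the clusters held in KO cells, compared with similar windows elsewhere on their chromosomes.

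KRAB zinc finger proteins make up a very large family of transcription repressors in mammals. Their zinc fingers bind DNA, often in transposable elements, and their KRAB domain recruits Trim28 (KAP1) and the histone methyltransferase Setdb1, which place the repressive mark H3K9me3. Their genes arose by repeated tandem duplication, so neighbouring copies are alike in sequence, and the clusters themselves are known to carry H3K9me3. Methylation of CpG sites is copied at replication by Dnmt1, and mouse ES cells grown with Mek and Gsk3 inhibitors are known for low methylation. Rsl1 on chromosome 13 belongs to the regulators of sex-limited genes, which repress male-specific liver genes.

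The cluster label could not be checked gene by gene, because the gene table used here is of another build (RefSeq, GRCm38.p6) and no gene was placed on the mm9 positions. The order of genes in that table gives the setting. On chromosome 2 the run from Gm14444 to Zfp931 holds 32 protein-coding genes, 9 of them named Zfp. On chromosome 4 the run from Zfp990 to Zfp933 holds 18 protein-coding genes, 17 of them named Zfp or Rex2. On chromosome 13 the zinc finger genes fall into a run from Zfp808 to 6720489N17Rik and a run from Zfp369 to BC048507. Between these runs lie 24 other protein-coding genes, among them Fbp1 (a gluconeogenic enzyme), Fancc (DNA crosslink repair) and Ptch1 (the Hedgehog receptor), of which 1 is named Zfp. A long interval of chromosome 13 is therefore a mix of zinc finger genes and others.

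MspI cuts CCGG, so the presence of that motif decides what this assay can read. Over the 250 bases before the start, CCGG (which reads the same on both strands) was found in 26 of the 51 promoters of the Zfp, Rsl and Rex2 genes of these runs, 51.0%, against 47.1% of all 32851 promoters in the table. The runs differed: 8 of 9 promoters held it on chromosome 2, 3 of 16 on chromosome 4, and 2 of 2 and 13 of 24 in the chromosome 13 runs. Promoters of 47 of the 56 genes were in the table. The promoter with most CCGG motifs and then most CG pairs in the runs of each chromosome is shown as an example. Being picked for its motifs, it is not typical of these promoters, and motif numbers per promoter were not compared with other promoters. The sequences are from RefSeq (GRCm38.p6), read 5′ to 3′ on the strand of the gene, and capitals mark CCGG.
Zfp966 on chromosome 2, minus strand: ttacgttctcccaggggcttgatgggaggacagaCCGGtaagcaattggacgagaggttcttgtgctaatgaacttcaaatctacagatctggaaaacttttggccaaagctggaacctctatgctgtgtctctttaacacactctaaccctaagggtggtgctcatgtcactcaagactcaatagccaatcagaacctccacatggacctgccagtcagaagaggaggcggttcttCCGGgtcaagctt
Zfp982 on chromosome 4, plus strand: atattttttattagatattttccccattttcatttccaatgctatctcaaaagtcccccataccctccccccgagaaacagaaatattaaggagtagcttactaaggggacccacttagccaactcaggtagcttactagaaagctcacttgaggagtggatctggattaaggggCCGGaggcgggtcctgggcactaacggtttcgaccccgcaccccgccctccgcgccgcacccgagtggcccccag
Zfp748 on chromosome 13, minus strand: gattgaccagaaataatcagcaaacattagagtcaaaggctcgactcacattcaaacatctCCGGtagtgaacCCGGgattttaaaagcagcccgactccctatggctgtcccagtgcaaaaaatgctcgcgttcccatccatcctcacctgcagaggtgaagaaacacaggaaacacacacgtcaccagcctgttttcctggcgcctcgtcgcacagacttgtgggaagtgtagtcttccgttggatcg
These stretches of 250 bases hold 2, 1 and 2 CCGG motifs and 5, 11 and 12 CG pairs. A motif in the sequence does not say that the site was covered in these libraries.

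The clusters were not read equally well. The chromosome 2 cluster gave 67.6 shared cytosines per Mb, against 828 per Mb on the rest of chromosome 2, and 25.1% of its 780 listed cytosines had 10 or more calls in each library, against 39.9% on the rest of the chromosome. The chromosome 4 cluster gave 933 per Mb, against 891 outside it, and the chromosome 13 cluster 594 per Mb, against 612 outside it. The chromosome 4 cytosines were unevenly placed, so its mean does not describe the whole cluster. Each 500 kb block before position 147000000 held 161 to 392 of them. The block from 147000001 to 147500000 held 908, and the short one from 147500001 to 147600000 held 451. Depth at the 6184 cytosines was alike between libraries, with a median of 28 calls in both KO libraries and 32 and 27 calls in the WT libraries. The cluster windows were somewhat deeper than windows outside the clusters on these chromosomes. Median calls per cytosine were 30.7 and 31.0 against 27.5 and 27.6 in KO, and 33.9 and 29.3 against 30.5 and 26.3 in WT. Depth was not used in the matching described below. Relative to all calls of a library, the clusters took 1.03 times as many calls in KO as in WT. No molecular identifiers are mentioned in the labels, so the depth overstates the number of independent molecules where reads were copied. Statements on chromosome 2 rest on 16 windows, all but 1 of them beyond position 177000000.

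CpG methylation of the clusters was far lower in KO. Over the 6184 cytosines the mean level was 10.5% and 7.60% in KO replicates 1 and 2, and 27.3% in each WT library. Both KO libraries thus lay far below both WT libraries, and the KO libraries differed from each other much more than the WT libraries did. The group means were 9.05% ± 2.05 (SD, n = 2) in KO and 27.3% ± 0.0113 (SD, n = 2) in WT, a difference of -18.3 percentage points. With each window given equal weight the means were 17.2% ± 3.76 (SD, n = 2) in KO and 51.2% ± 0.163 (SD, n = 2) in WT, a difference of -34.0 points. Permuting the libraries between genotypes (exact test, two-sided) gave p = 0.333 for cytosines and for windows. With 2 libraries per genotype no smaller value is possible, so 0.05 is out of reach. Cytosines with a level of 80% or more made up 0.695% and 0.146% of the clusters in the KO libraries and 21.1% and 21.0% in the WT libraries. Entirely unmethylated cytosines were 57.4% and 59.4% of the total in KO and 45.5% and 46.3% in WT.

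Most methylated windows of the clusters were called lower in KO, as elsewhere in the genome. Calls come from the quasi-likelihood test of edgeR on all windows, with Benjamini-Hochberg adjusted p below 0.05 and at least 10 points between the genotypes. Of the 402 cluster windows 267 (66.4%) were called lower, against 76.3% of all windows. Their median level was 21.9% in KO and 86.0% in WT. Fewer cluster windows were methylated in WT to begin with: 263 of them (65.4%) had a WT level of 20% or more, against 74.6% of all windows. Of these 263, 260 (98.9%) were called lower, against 99.7% of all windows with that WT level. The other 3, named after their values were seen, had WT levels of 24.9% to 33.7% and were chr13:62200001-62201000, chr13:65968001-65969000 and chr4:147138001-147139000. In chr4:147138001-147139000 the level was 24.1% and 20.8% in the KO libraries and 33.3% in each WT library, and edgeR's adjusted p was 0.288. No cluster window was called higher in KO, against 0.00247% of all windows. At an unadjusted p below 0.05 there were 0 such windows by edgeR, and limma and Fisher's exact test called 0 as well. The genotypes did not overlap, with KO lower, in 347 of the 402 windows (86.3%), against 89% of all windows.

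The clusters kept a somewhat larger share of their WT methylation than similar windows did. Each cluster window was set against all windows of the same chromosome outside the clusters with a like number of cytosines and a like WT level; 401 of the 402 windows had such a stratum, with 13499 windows outside. The mean level of the cluster windows was 19.9% and 14.6% in KO replicates 1 and 2, where the matched windows had 18.2% and 12.2%. In WT replicates 1 and 2 it was 51.4% and 51.2%, where the matched windows had 51.5% in both. Both KO libraries were therefore above their matched level and both WT libraries slightly below it. The closeness in WT is set by the matching on WT level and is not a result. The KO level was 33.6% of the WT level in the clusters and 29.5% in the matched windows, a difference of 4.10 points. For KO replicate 1 the shares were 38.8% in the clusters and 35.4% in the matched windows, and for KO replicate 2 they were 28.4% and 23.6%. Relative to the matched windows the library means deviated by 1.68 and 2.41 points in KO and by -0.0698 and -0.298 points in WT, for which the exact permutation p (two-sided) was again 0.333. Because the matching holds the WT deviations small, they are no free control for those of KO. The level of KO replicate 2 was 73.3% of that of KO replicate 1 in the clusters and 66.8% in the matched windows.

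The excess had the same sign in each cluster. The chromosome 4 cluster kept 33.8% of its WT level and its matched windows 29.6%. The chromosome 13 cluster kept 33.4%, against 29.4% in its matched windows. The chromosome 2 cluster kept 35.2%, against 30.1%, but there the libraries were uneven: KO replicate 1 was 2.78 points above the matched level and KO replicate 2 was 0.687 points above it, while the WT libraries deviated from it by -0.130 and -1.19 points. On chromosomes 4 and 13 both KO libraries were 1.56 to 2.48 points above the matched level. The exact permutation p (two-sided) was 0.333 in each of the 3 clusters, and adjustment over them leaves it there.

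**Figure D1:**
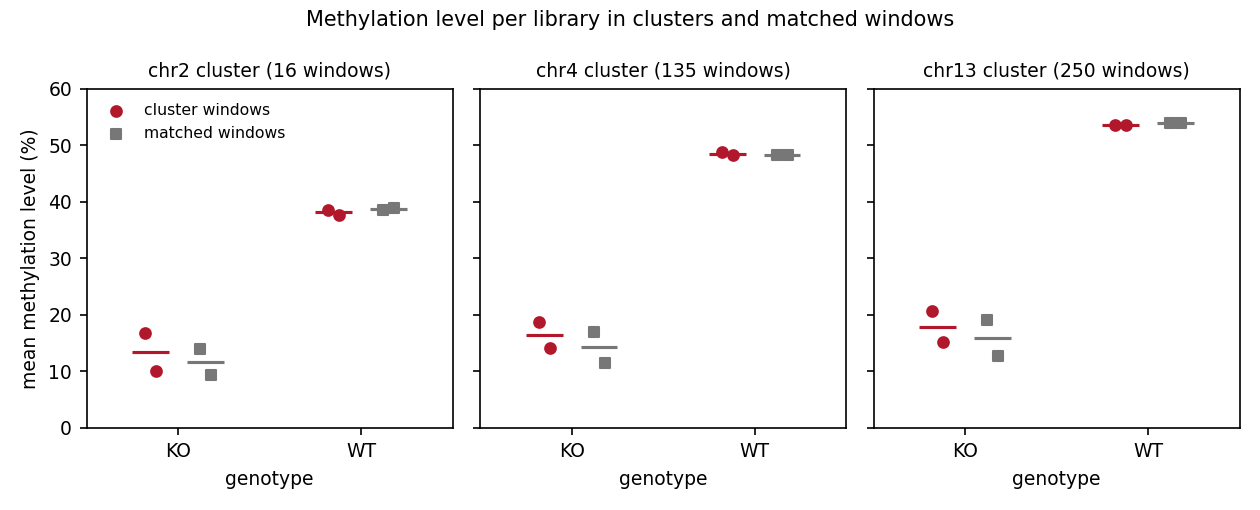
Mean methylation level (percent, vertical axis) of cluster windows (red circles) and matched windows (grey squares) in each library, by genotype, for the 3 clusters; lines are the means of 2 libraries. In WT, on which the windows were matched, the cluster and matched windows lie within 1.19 points of each other. In KO each cluster's mean lies above that of its matched windows, by 1.73 points on chromosome 2, 2.13 on chromosome 4 and 2.02 on chromosome 13.

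More methylated windows stood above their match than elsewhere, and fewer below. Among the 263 cluster windows of WT level 20% or more, both KO libraries exceeded the mean of the matched windows in 127 (48.3%), against 35.2% of all windows with that WT level. Both KO libraries lay below it in 85 (32.3%), against 42.9% of all. The median share kept was 31.3% over the 263 cluster windows, with quartiles of 20.1% and 41.8%, against a median of 26.7% over all 90648 windows of that WT level, with quartiles of 18.9% and 35.3%. The lower quartiles were thus close and the upper ones apart. The standard deviation over windows was 15.3 points in the clusters and 12.4 points in all windows.

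The excess was found mainly in the windows that were nearly fully methylated in WT. The 105 matched cluster windows of WT level 90% or more averaged 43.5% and 33.2% in the KO libraries and 93.5% and 93.3% in the WT libraries. They kept 41.1% of the WT level, where their matched windows kept 34.3%. At a WT level of 80 to 90% the 56 windows kept 29.4%, against 26.9% in matched windows. At 50 to 80% the 62 windows kept 24.2%, against 23.1%, and at 20 to 50% the 39 windows kept 24.8%, against 22.5%. The 139 windows with a WT level below 20% averaged 1.02% and 0.787% in KO and 3.13% and 3.15% in WT, and kept 28.8%, against 33.5% in matched windows, from levels close to 0. No test of the difference between WT classes was run.

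**Figure D2:**
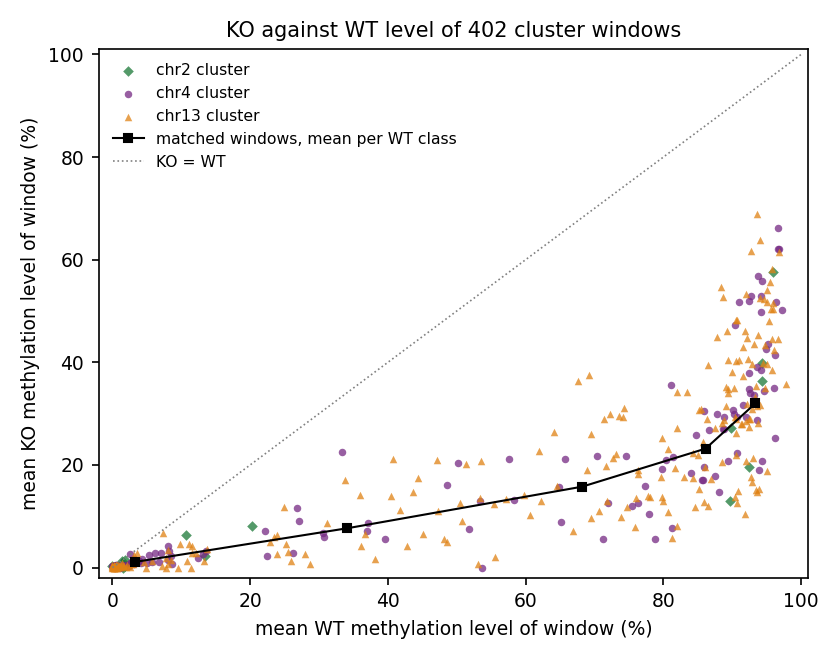
Mean KO methylation level (percent, vertical axis) against mean WT level (percent, horizontal axis) of the 402 cluster windows, 1 point per window, with the matched windows as black squares (mean per WT class) and the line of equal levels dotted. Every point with a WT level of 20% or more lies below the dotted line, and the points at the right edge spread from 10.5% to 68.9% in KO around a matched mean of 32.0%.

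The excess was not seen over all windows with most cytosines. The 75 windows with 20 or more cytosines, at any WT level, averaged 2.18% and 1.37% in the KO libraries and 6.39% and 6.44% in the WT libraries. They kept 27.7% of the WT level, against 29.4% in matched windows, and the KO libraries deviated from the match by -0.0383 and -0.0818 points. In the classes with fewer cytosines the share kept was 4.00 to 4.67 points above the match. Among windows of WT level 20% or more, the 94 windows with 3 or 4 cytosines kept 32.8%, against 28.5% in matched windows. The 102 windows with 5 to 9 cytosines kept 34.6%, against 30.5%, and the 59 windows with 10 to 19 cytosines kept 33.9%, against 29.1%. Only 7 methylated windows held 20 or more cytosines; they kept 28.1%, against 25.5%, and there KO replicate 1 was 2.21 points above the matched level and KO replicate 2 was 0.0176 points above it.

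The excess was uneven along the clusters. Blocks of 500 kb were compared with the matched windows, and the 18 of 24 blocks with at least 5 windows of WT level 20% or more are considered here. Both KO libraries were above the matched level in 11 of the 18 blocks and below it in 2. Blocks outside the clusters were not compared in this way, so how much such blocks vary elsewhere is not known. In the first part of the chromosome 4 cluster the excess was high: the block from 145000001 to 145500000 kept 42.9% of its WT level, against 33.2% in matched windows, and the block from 145500001 to 146000000 kept 41.7%, against 31.6%. In the block from 146500001 to 147000000 the level was 32.3% and 24.7% in the KO libraries and 63.1% and 61.9% in the WT libraries, a share of 45.6%, against 32.1% in matched windows. The KO libraries were 8.61 and 8.42 points above the matched level there. Beyond 147000000 this was not seen. The block from 147000001 to 147500000, with 57 windows, kept 26.4%, against 28.0% in matched windows, and that from 147500001 to 147600000 kept 23.0%, against 24.9%. In these 2 blocks both KO libraries deviated from the matched level by -1.66 to -0.194 points.

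The chromosome 13 cluster had 4 blocks of high excess among blocks nearer to the matched level. The block from 62200001 to 62700000 had 29.8% and 22.4% in KO and 61.2% and 60.3% in WT, and kept 43.0%, against 32.4% in matched windows. From there to 65700000 the 6 blocks kept 27.2% to 32.8% of the WT level, -1.22 to 3.45 points from their matched windows. The blocks from 65700001 to 66200000 and from 66200001 to 66700000 kept 38.1% and 43.0%, against 26.5% and 28.2% in matched windows. In the block from 66200001 the level was 25.8% and 20.7% in KO and 53.7% and 54.2% in WT. The block from 66700001 to 67200000 kept 26.2%, against 26.3% in matched windows, the block from 67200001 to 67700000 kept 41.1%, against 30.5%, and the last block, to 68200000, kept 31.5%, against 31.4%. In the 4 blocks of high excess both KO libraries were 4.10 to 8.42 points above the matched level. These blocks hold 13 to 25 windows each, and which genes lie in them was not determined. Whether blocks outside the clusters reach a like excess was not examined.

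**Figure D3:**
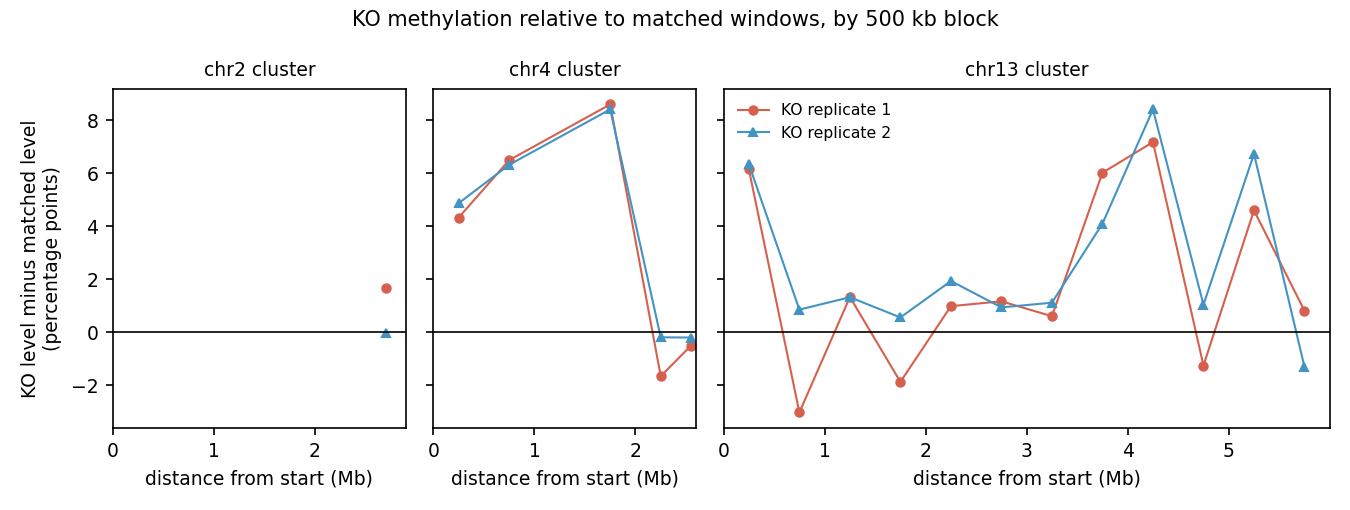
KO methylation level minus the level of matched windows (percentage points, vertical axis) by 500 kb block along each cluster (distance from its start in Mb, horizontal axis), for KO replicate 1 (red circles) and KO replicate 2 (blue triangles); blocks with fewer than 5 windows of WT level 20% or more are not drawn. Both replicates have values from 4.10 to 8.61 points in the first 3 drawn blocks of chromosome 4 and in 4 blocks of chromosome 13. Values lie between -3.03 and 1.93 points in the other blocks drawn, and in some of these the replicates differ in sign. An example is the chromosome 13 block from 62700001, with -3.03 points in KO replicate 1 and 0.853 in KO replicate 2.

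Some cluster windows kept a high level in both KO libraries. A level of 50% or more in both was found in 9 of the 402 windows (2.24%), against 0.808% of all windows. Among windows of WT level 80% or more it was 9 of 161 (5.59%), against 1.71% of all windows with that level; 5 lay in the chromosome 4 cluster and 4 in the chromosome 13 cluster. Their median depth per cytosine was 25.7 and 28 calls in the KO libraries and 30.4 and 27.7 in the WT libraries, against 30.7 and 31.0 in KO and 33.9 and 29.3 in WT over all cluster windows. Much deeper were chr4:146599001-146600000, with 605 to 850 calls per library over 5 cytosines, and chr4:146723001-146724000, with 806 to 932 over 7. How reads from near-identical gene copies were assigned is not given in the sources used here, and its part in these levels was not tested. Among windows with at least 5 cytosines and a WT level of 50% or more, the highest share kept was in chr13:67484001-67485000. There the level was 74.4% and 63.3% in the KO libraries and 93.4% and 93.9% in the WT libraries, a share of 73.5%, against 33.2% in matched windows. It was still called lower, with edgeR's adjusted p at 1.03e-05. Its 7 cytosines were not alike: the 5 from 67484884 to 67484908 had 75.9% to 96.0% in KO, and the pair at 67484963 and 67484964 had 10.7% to 35.0% in KO and 83.3% to 96.7% in WT, at 20 to 34 calls each.

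On chromosome 4 the neighbouring windows chr4:146598001-146599000 and chr4:146599001-146600000 both kept a high level. In chr4:146598001-146599000 the level was 72.4% and 60.06% in KO and 96.9% and 96.5% in WT, and the window beside it had 71.4% and 52.7% in KO and 96.1% and 97.0% in WT. Their shares of 68.5% and 64.2% compare with 43.2% and 40.2% in matched windows. Of the 9 cytosines in chr4:146598001-146599000, that at 146598212 was lowest in KO, with 43.3% and 24.3%, and that at 146598299 was at 93.3% and 73.0%. The window chr4:146599001-146600000 was unusually deep, with 121 to 170 calls per cytosine. The window chr4:145689001-145690000 kept 64.2%, with 66.7% and 57.6% in KO and 97.3% and 96.4% in WT from at most 17 calls per cytosine.

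Further windows of high share kept, again from those with at least 5 cytosines and a WT level of 50% or more, were on chromosomes 13 and 2. The window chr13:66362001-66363000 kept 67.9%, with 68.9% and 58.8% in KO and 96.2% and 91.9% in WT. In chr13:65158001-65159000 the share was 61.9%, but the KO libraries were far apart, at 68.5% and 40.9%, so that only KO replicate 1 was at 50% or more, where the WT libraries had 87.7% and 88.9%. On chromosome 2, where only 4 windows had 5 or more cytosines and a WT level of 50% or more, chr2:177308001-177309000 kept 59.99%, with 70% and 45.1% in KO and 95.3% and 96.5% in WT. It too was deep, with 130 to 214 calls per cytosine, and there too KO replicate 2 was below 50%. The other 4 windows at 50% or more in both KO libraries were chr4:145009001-145010000, chr4:146723001-146724000, chr13:62411001-62412000 and chr13:63463001-63464000, named after their values were seen. Of these, chr4:146723001-146724000 had 7 cytosines, with 62.1% and 51.4% in KO and 94.1% and 93.3% in WT, and the others had 3 each. The 7 windows named before these were all called lower in KO, and edgeR's adjusted p lay between 1.20e-15 and 1.03e-05.

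**Figure D4:**
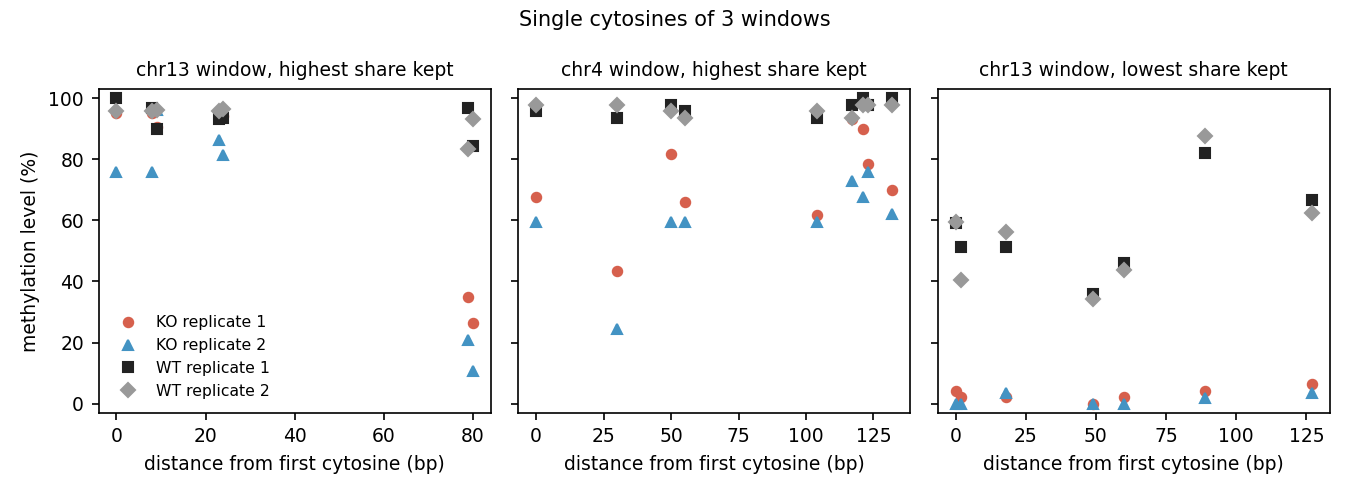
Methylation level (percent, vertical axis) of single cytosines by distance from the first covered cytosine of the window (bp, horizontal axis) in KO replicates 1 and 2 and WT replicates 1 and 2, for chr13:67484001-67485000, chr4:146598001-146599000 and chr13:65075001-65076000; highest and lowest in the panel titles are among windows with at least 5 cytosines and a WT level of 50% or more. In the first window 5 cytosines stay above 75% in KO and the last 2 are at 35.0% or less, and in the third no cytosine exceeds 6.38% in KO.

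At the other end, some windows lost nearly all methylation. Among windows with at least 5 cytosines and a WT level of 50% or more, the lowest share was in chr13:65075001-65076000, with 3.04% and 1.25% in KO and 56.0% and 54.9% in WT. It kept 3.87% of the WT level, against 20.7% in matched windows, and edgeR's adjusted p was 3.27e-20. Its 7 cytosines ran from 0 to 6.38% in KO and from 34.4% to 87.5% in WT. The windows chr13:63073001-63074000 and chr13:63772001-63773000 kept 9.80% and 10.3%. On chromosome 4 the windows chr4:147331001-147332000, chr4:147231001-147232000 and chr4:147592001-147593000 kept 7.91%, 9.42% and 13.4%, against 24.0%, 27.9% and 24.0% in matched windows. All 3 lie beyond position 147000000, in the part of the cluster whose blocks lay below their match, and they enter those block means. The blocks there hold 40 and 9 of the 83 chromosome 4 windows of WT level 20% or more. On chromosome 2 the lowest of the 4 windows within these limits was chr2:177893001-177894000, with 23.5% and 15.7% in KO and 92.1% and 92.6% in WT, a share of 21.2%, against 30.3% in matched windows.

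The methylated windows with most cytosines lay between these ends. On chromosome 4, chr4:146841001-146842000 with 20 cytosines had 42.7% and 26.9% in KO and 93.4% and 91.5% in WT, and chr4:146846001-146847000 with 19 cytosines had 27.1% and 16.1% in KO and 80.1% and 82.7% in WT. They kept 37.6% and 26.5%, against 31.3% and 25.9% in matched windows. On chromosome 13, chr13:67256001-67257000 with 24 cytosines had 26.1% and 11.7% in KO and 74.7% and 77.8% in WT, and chr13:66702001-66703000 with 19 cytosines had 18.3% and 9.15% in KO and 79.2% and 77.1% in WT. They kept 24.8% and 17.6%, against 22.3% and 22.6% in matched windows.

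The windows with most cytosines on chromosomes 4 and 13, whatever their WT level, were almost unmethylated in both genotypes. On chromosome 13, chr13:64254001-64255000 with 169 cytosines had 0.160% and 0.200% in KO and 0.144% and 0.346% in WT. On chromosome 4, chr4:147315001-147316000 with 140 cytosines had 0.236% and 0.0897% in KO and 0.296% and 0.463% in WT, and chr4:147534001-147535000 with 84 cytosines had 0.323% and 0.332% in KO and 0.399% and 0.400% in WT. None of these, nor chr13:67034001-67035000 with 99 cytosines, differed by the 10 points a call needs. The densest windows of the chromosome 2 cluster held fewer cytosines. Among them chr2:177853001-177854000 with 38 cytosines had 1.86% and 0.751% in KO and 1.37% and 1.43% in WT. Near it, chr2:177877001-177878000 with 33 cytosines had an intermediate level, with 12.4% and 3.69% in KO and 21.3% and 19.2% in WT, and edgeR's adjusted p was 0.000599; its call was lost without WT replicate 1, with a difference of -11.2 points, and without KO replicate 2, with -7.85 points.

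Windows were also tested against the fall of the whole library. Each library was centred on its median logit level over windows with a mean level of 10 to 90%, and windows were tested with limma at an adjusted p below 0.05 over all windows. Of the 402 cluster windows 169 (42%) were called above the library-wide shift, against 33.2% of all windows, and 22 (5.47%) below it, against 5.66%. A window that is unmethylated in both genotypes counts as above by construction, so windows of WT level 20% or more were counted apart, a choice made after seeing the data. Of these 263 cluster windows 57 (21.7%) were above the shift, against 15.9% of all windows with that level, and 21 (7.98%) were below it, against 7.57%. With centring on windows of WT level 80% or more, 72 of the 263 (27.4%) were above, against 21.7% of all windows with that level, and 12 (4.56%) below, against 4.91%. In the first centring, 17 of 83 on chromosome 4, 39 of 173 on chromosome 13 and 1 of 7 on chromosome 2 were above it. These counts were not matched on WT level, and the call did not always follow the share kept. The window chr13:62492001-62493000, of WT level 57.2%, kept 23.5%, against 22.2% in matched windows, and was called above. Of the 9 windows at 50% or more in both KO libraries, only chr13:67484001-67485000 was called above, though each kept more than its match. The counts therefore cannot tell whether the clusters kept more than windows of like WT level. The counts over all 402 windows, above and below, were lower whichever library was left out, which leaves a single library in its genotype.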

How the data were processed

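Genomic DNA of 4 libraries was measured, 2 of Naa10 KO and 2 of WT ES cells. For each library the authors deposited a table of CpG cytosines with counts of methylated and unmethylated calls and a methylation percent; in these deposited tables the percent equals the methylated count over both counts. Per the submitters' processing notes, Bismark 0.10.1, Trim Galore and mm9 were used, though what each did is left unsaid. How reads were trimmed, filtered or freed of duplicates is not given in the sources used here; filled-in bases at MspI sites or reads shared by near-identical gene copies could change levels. Each library held 68548142 to 79496304 calls on chromosomes 1 to 19, X and Y.

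Windows of 1 kb with at least 3 cytosines of 10 or more calls were tested with edgeR 4.0.16 (methylated and unmethylated counts as separate columns, with library, state and state-by-genotype terms) and limma 3.58.1 (logit level, 0.5 added to each count). Library means were compared with an exact permutation test (scipy 1.17.1). Matching used the chromosome, the number of cytosines (classes starting at 3, 5, 7, 10, 15, 20 and 40) and the mean WT level (bins of 10 points, 5 above 80%); strata with fewer than 5 outside windows were left out, which removed 1 window. Named windows, from those with at least 5 cytosines and a WT level of 50% or more, are the 3 with the highest and the 3 with the lowest share kept and the 2 with most cytosines in each cluster, and the 2 with most cytosines at any level. The scripts were tested on simulated data: edgeR called 45 of 100 windows lowered by 15 points and 100 of 100 lowered by 30, and limma called 0 of 100 in both cases, among 121563 simulated windows. The limma test there was that against the library-wide shift. The simulated spread was taken from the WT libraries alone, and no library-wide fall was simulated. These rates therefore need not hold for the measured libraries, where the KO libraries were further apart and most windows fell. The clusters and settings were chosen with earlier results of these data known.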

Additional observations from a re-analysis of the deposited data

How the results depend on the processing

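The difference in share kept between cluster and matched windows was above 0 under all 22 alternatives run, from 2.96 points at a coverage minimum of 5 calls to 5.18 points as a median over windows, and it was 3.41 to 4.79 points with each library left out in turn. It was 3.27 points without windows of more than 2 times the median depth and 3.42 points without the windows of 50% or more in both KO libraries; these were chosen after seeing the data. The KO minus WT difference over cytosines was -19.7 to -16.8 points, and over windows -36.7 to -31.4 points, with each library left out. The count of windows called lower, 267, was 163 at a minimum of 20 calls and 72 at 10 or more cytosines per window, which both test fewer windows; with a library left out it was 253 to 268, and 0 were called higher in each case. The count above the library-wide shift was 99 at 10 or more cytosines, 57 at a WT level of 20% or more, and 96 to 164 with a library left out. The count below it was 12 at a minimum of 20 calls, 4 at 10 or more cytosines, 12 with centring on windows of WT level 80% or more, and 2 to 12 with a library left out; the cause was not tested. With the replicate number as a block, 267 windows were called lower, 158 above and 16 below the shift; equal numbers do not mark a shared culture in the labels, and the deviations of same-numbered libraries had a correlation of -0.00288 over 90648 windows. Of 303 results of the 26 named windows under alternatives, 298 kept their call; 4 lost it, of which 3 were in chr2:177877001-177878000 and 1 in chr13:67484001-67485000 at a minimum difference of 25 points, and 1 gained it. The chromosome 2 cluster is limited by its 16 windows.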

Other observations

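In 1 place of the clusters, cytosines had 10 or more calls in both WT libraries and none in either KO library. Smaller local differences in coverage were not looked for. The same count was not made over the rest of the genome, so whether such a place is unusual is not known. At chr13:66245175-66245298, 14 of the 15 listed cytosines had no call in either KO library and 12 to 18 calls each in the WT libraries. Their mean level was 85.7% in WT replicate 1 and 89.3% in WT replicate 2. The remaining cytosine of this stretch had 31 and 33 calls in the KO libraries, and on either side both KO libraries next had calls at 66240044 and 66245318. No cytosine of the clusters had 10 or more calls in both KO libraries and none in the WT libraries.

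Cytosines at the coverage minimum differed in level from those just below it. The 207 cluster cytosines whose smallest depth over the libraries was 10 calls had mean levels of 22.9% and 16.3% in the KO libraries and 51.2% and 50.1% in the WT libraries. The 218 with a smallest depth of 9, which were left out, had 9.89% and 7.32% in KO and 27.2% and 26.1% in WT. The KO level was 38.7% of the WT level in the cytosines just inside and 32.3% in those just outside. Over the matched cluster windows the share kept varied less with the minimum, at 32.7% for 5 calls, 33.6% for 10 and 33.0% for 20.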
